A study of Mus musculus with 24 samples.

Results

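The mouse mitochondrial genome carries 37 genes, and all 37 were found among the 56941 genes listed in the deposited table by their names, which start with mt-. They comprise 13 mRNAs, 2 rRNAs and 22 tRNAs, against 27870 genes of the whole table with a count in any library. The study stimulated muscle cells with light every day and sequenced their RNA, in 24 libraries that fall into 4 groups of 6 biological replicates. Every culture came from C2C12, an immortalised mouse myoblast line that fuses into contractile myotubes when serum is changed, and every culture carried the genotype ChR2::tdTomato, in which channelrhodopsin-2, a cation channel opened by blue light, is fused to a red fluorescent protein. All 4 groups were grown in DMEM with fetal bovine serum and then differentiated with inactivated horse serum and IGF-1. The control group received no light stimulation, and the other groups were paced at 1, 4 or 10 Hz in daily sessions of 60 min. The control cultures contain the channel too, so no group lacks it, and the cells are a single line in which cultured wells, not animals, are the replicates. The comparison asks how the RNAs made from the mitochondrial genome stood in cultures paced at each frequency, and how much they varied between cultures of one group.

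Mitochondrial DNA is a small circular genome kept in many copies per cell. Each strand is transcribed as a long precursor from which tRNAs are excised, and the excision frees the mRNAs and rRNAs that lie between them. The mRNAs encode core subunits of respiratory complexes I, III and IV and of ATP synthase, whose remaining subunits come from nuclear genes, and the rRNAs and tRNAs serve the mitochondrial ribosome. In skeletal muscle this system supplies much of the ATP used in sustained contraction, and muscle fibres differ widely in their mitochondrial content.

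The layout of the genes set what could be measured, so the sequences at which it mattered are given first, from the GRCm39 assembly with GENCODE gene models, on the plus strand and read 5′ to 3′. On the mitochondrial chromosome of 16299 bases, 28 genes lie on the plus strand and 9 on the minus strand, the latter being mt-Nd6 and 8 tRNAs. Adjacent genes abut, overlap or lie a short gap apart. The tRNA gene mt-Tl1 fills the whole gap between mt-Rnr2 and mt-Nd1, members whose levels recur in the comparisons, and mt-Tm is the single tRNA gene that received a count.
mt-Tl1, chrM:2676-2750: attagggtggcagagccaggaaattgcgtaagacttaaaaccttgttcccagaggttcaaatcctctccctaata
mt-Tm, chrM:3845-3913: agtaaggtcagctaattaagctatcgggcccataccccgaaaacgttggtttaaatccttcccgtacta
Overlaps in different reading frames join the mRNA pairs mt-Atp8 with mt-Atp6 and mt-Nd4l with mt-Nd4, and reads from the bases in capitals belong to both genes.
mt-Atp8 and mt-Atp6, chrM:7880-8000: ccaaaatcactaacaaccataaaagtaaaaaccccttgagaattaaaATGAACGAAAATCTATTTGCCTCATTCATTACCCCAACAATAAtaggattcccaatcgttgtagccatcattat
mt-Nd4l and mt-Nd4, chrM:10144-10196: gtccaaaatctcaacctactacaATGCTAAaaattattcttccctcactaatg

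The tails of the mRNAs matter for libraries made by poly(A) selection. Of the 13 annotated coding sequences, 3 (mt-Co3, mt-Nd4 and mt-Cytb) ended on a bare T, which becomes a stop codon only once the RNA is polyadenylated, while mt-Nd1 ended on a complete codon. The capitals mark the last bases of the coding sequence in each.
mt-Nd1, chrM:3678-3737: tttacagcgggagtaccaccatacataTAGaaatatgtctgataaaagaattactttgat
mt-Co3, chrM:9361-9420: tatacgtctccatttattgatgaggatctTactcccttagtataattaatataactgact
mt-Cytb, chrM:15259-15318: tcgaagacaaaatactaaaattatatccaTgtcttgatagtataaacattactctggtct

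Part of the mitochondrial genome also has a near-identical nuclear copy, which affects how counts were divided. Bases 6390 to 11042 of the mitochondrial chromosome matched chr1:24650616-24655269 on the minus strand over 4654 aligned bases, with 99.936% identity, 2 mismatches and 1 gap. The copy contained the whole of mt-Co2, mt-Atp8, mt-Atp6, mt-Co3, mt-Nd3 and mt-Nd4l, 31.3% of mt-Co1 and 63.6% of mt-Nd4, and 7 annotated genes of chromosome 1 lay in it. Written with the mitochondrial base first and counted from base 1 of the mitochondrial chromosome, the substitutions were A6393T in mt-Co1 and T9461C in mt-Nd3, and the gap fell in mt-Tr. The window around T9461C shows how little there was to tell the copies apart, with the differing base in capitals.
mt-Nd3, chrM:9431-9491: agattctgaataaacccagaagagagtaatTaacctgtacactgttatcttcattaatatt
Nuclear copy, chr1:24652168-24652228, minus strand: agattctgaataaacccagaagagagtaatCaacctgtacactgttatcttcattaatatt

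Estimated counts of most of these members were therefore shared between the chromosomes in proportions that changed from library to library. The nuclear gene Gm28437 took between 48.8% and 83.4% of the counts of its pair with mt-Co3, with a median of 74.8% over the 24 libraries. Gm28438 took 39.9% to 100% of the pair with mt-Nd3 (median 78.6%), and mt-Nd3 itself was listed at 0 in 3 libraries, 1 Hz replicates 1 and 2 and 4 Hz replicate 1. For mt-Nd4l, Gm10222 took 0% to 70.1% (median 43.2%), and the split differed by group, with 24.7% to 39.1% at 4 Hz against 41.3% to 70.1% at 10 Hz. Median splits were smaller for mt-Co2 with Gm28661 (10.7% to 56.4%, median 27.0%), for mt-Co1 with Gm29216 (1.91% to 20.1%, median 5.41%) and for mt-Atp6 with Gm10925 (0% to 46.9%, median 2.47%). In the control group, the coefficient of variation of mt-Nd3 was 53.3% alone and 21.5% for the summed pair, and that of mt-Co3 was 33.1% alone and 22.1% for the sum. Summing did not always lower it, with 69.9% alone and 90.1% summed for mt-Co3 at 4 Hz and 27.5% and 29.2% for mt-Nd4l in controls. Levels of the members whose counts were divided in this way are therefore uncertain. For mt-Nd4, Gm28439 took 0% to 4.35% (median 0%), although the bases they share were identical. The gene mt-Atp8 had no counterpart among the annotated genes of the copy, so its counts were not divided. The members mt-Rnr1, mt-Rnr2, mt-Nd1, mt-Nd2, mt-Nd5, mt-Nd6 and mt-Cytb lie outside the copy and do not share that limit.

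**Figure D1:**
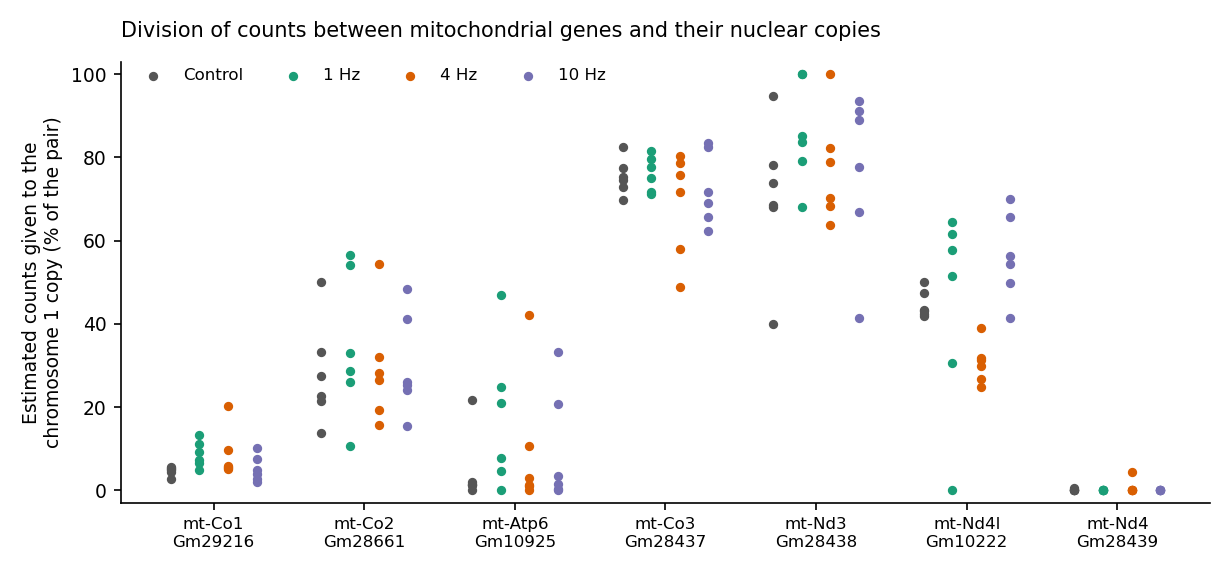
Percent of the estimated counts of each pair (a mitochondrial gene and its chromosome 1 copy) that were given to the copy, with 1 point per library. The copy of mt-Co3 took 48.8% to 83.4% and that of mt-Nd3 39.9% to 100%, whereas the copy of mt-Co1 took 1.91% to 20.1%.

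Library totals ran from 8052369 to 18159144 counts, with group medians of 11513304 (control), 10488375 (1 Hz), 9429274 (4 Hz) and 9587933 (10 Hz). All 12 myotube markers examined had counts in every library, in cultures that the labels call myoblasts; the actin gene Acta1 averaged 6049, 6118, 6585 and 5519 CPM (a count scaled to the normalised size of its library) in the control, 1, 4 and 10 Hz groups. The myogenic factor gene Myog averaged 561, 221, 203 and 487 CPM, and the muscle stem cell gene Pax7 6.06, 2.07, 2.09 and 6.28 CPM, whereas 1 of the 12 myotube markers was called lower and none higher at 1 Hz, and 2 higher and 1 lower at 4 Hz. Of 8 markers of undifferentiated or cycling myoblasts, 2 were called higher and 1 lower at 1 Hz, and 2 higher and 4 lower at 4 Hz. At 1 Hz the calls were 37.5% of the myoblast list and 8.33% of the myotube list, against 37.3% of all tested genes. At 4 Hz they were 75.0% and 25.0%, against 51.4% of all tested genes. Neither list had a call at 10 Hz, and the summed TPM of the myoblast list was 39.4, 53.8, 44.4 and 48.5 in the 4 groups. Adipocyte markers did not exceed 0.195 CPM in any group mean, and the osteoblast marker Bglap averaged 0.944 to 1.50 CPM. In RNA from whole cultures, fewer cells of a type and less RNA per cell cannot be told apart.

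The mitochondrial genes gave a small and variable part of each library. In the control group the 37 genes held 1.98% ± 0.497 (SD, n = 6) of all counts, from 1.37% over a median of 1.98% to 2.72%. At 1 Hz the share was 2.53% ± 1.49 (lowest 1.52%, median 1.63%, highest 4.87%), at 4 Hz 3.24% ± 3.04 (0.545%, 2.09% and 8.90%) and at 10 Hz 1.83% ± 0.405 (1.44%, 1.71% and 2.56%). The highest library held 16.3 times the share of the lowest at 4 Hz, 3.20 times at 1 Hz, 1.99 times in the control group and 1.78 times at 10 Hz. All 4 groups overlapped. The raised means at 1 and 4 Hz came from 4 libraries, 1 Hz replicates 4 (3.97%) and 6 (4.87%) and 4 Hz replicates 3 (8.90%) and 6 (4.34%), while 4 Hz replicate 1 (0.545%) was the single library below the control range. No difference between group means passed a two-sided exact permutation test: p was 0.444 for 1 Hz, 0.409 for 4 Hz and 0.569 for 10 Hz against control, and all 6 pairs had a Benjamini-Hochberg adjusted p of 0.962 or more. Without those 5 libraries the differences at 1 and 4 Hz were -0.403 and -0.0882 percentage points; the libraries were chosen after the data were seen and on the share itself, so a smaller difference follows from the choice.

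Set against the nuclear genes for the same respiratory machinery, the mitochondrial mRNAs gave no difference that passed either. The log2 ratio of summed TPM (a level per transcript length, set to the same total in every library) of the 13 mRNAs to that of the nuclear subunit genes of complexes I, III, IV and V was 0.36 ± 0.40 (SD, n = 6) in the control libraries. Stimulated at 1 Hz, the cultures gave 0.25 ± 0.47, at 4 Hz 0.13 ± 1.40 and at 10 Hz 0.31 ± 0.33. The 4 Hz ratio ran from -2.17 to 1.82, a range that contained every library of the other groups. Exact permutation p-values against control were 0.669 at 1 Hz, 0.732 at 4 Hz and 0.859 at 10 Hz.

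**Figure D2:**
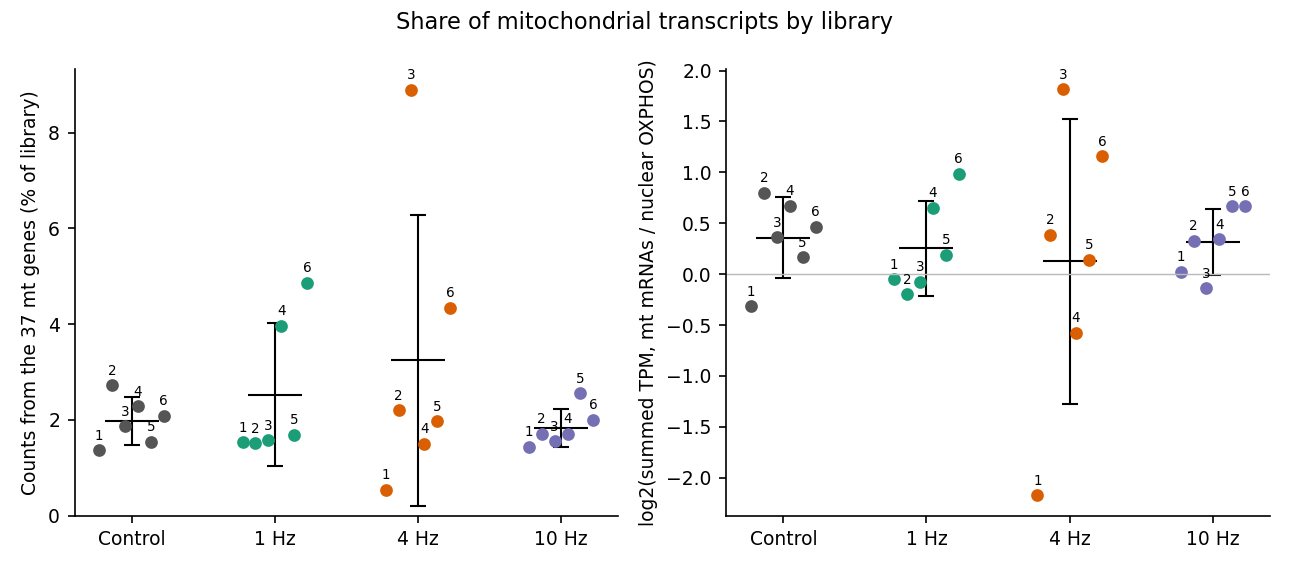
Left, percent of each library's counts from the 37 mitochondrial genes; right, log2 ratio of the summed TPM of the 13 mitochondrial mRNAs to that of the nuclear respiratory chain genes. Points are libraries numbered by replicate and bars are the group mean ± SD (n = 6); 4 Hz spans 0.545% to 8.90% and control 1.37% to 2.72%.

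This spread was large for genes of such abundance. Among 2183 tested genes that averaged at least 100 CPM, the median SD of log2 CPM within a group was 0.10, 0.18, 0.15 and 0.12 in the control, 1, 4 and 10 Hz groups. The 12 mitochondrial members in that abundance class had median SDs of 0.39, 0.80, 1.44 and 0.34, in the same order. In the control group 11 of these 12 were among the 50 genes with the largest SD, at 1 Hz and at 4 Hz all 12, and at 10 Hz 6. These SDs are of each member without its nuclear copy, whose shifting share of the reads enters them. Of the 6 that lie outside the copy, 5 were among those 50 genes in controls, all 6 at 1 Hz and at 4 Hz, and 3 at 10 Hz, with median SDs of 0.38, 0.80, 1.40 and 0.34. These genes come from the same precursors and the same libraries, so they are not independent of each other.

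The members moved up and down together. For the 13 mRNAs, each summed with its nuclear copy where it has one, the median SD of the log2 level was 0.38, 0.81, 1.43 and 0.32 in that order of groups. Once each gene was taken relative to the summed mitochondrial mRNAs of its own library, the median SD was 0.08, 0.17, 0.18 and 0.10. The exceptions, with a larger SD of the ratio than of the level, were mt-Nd4l at 1 Hz (0.53 against 0.48) and mt-Atp8 at 10 Hz (0.17 against 0.16). In 4 Hz replicate 3, for example, mt-Nd1 stood at 8763 CPM and mt-Co1 at 33993 CPM, against 381 and 1625 CPM in 4 Hz replicate 1.

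Of the 37 members, 16 had a count in any library and 15 passed the filter on low counts, namely the 13 mRNAs and the 2 rRNAs. The tRNAs, of 59 to 75 bases, were almost unseen. A single count was assigned to mt-Tm (tRNA for methionine) in 1 Hz replicate 4, 0.061 CPM at that depth, and the other 21 tRNAs had 0 counts in all 24 libraries. A count of 0 allows up to 3 counts, which is 0.165 to 0.373 CPM at these depths, for counting error only. The tRNAs carry no poly(A) tail, and the stated preparation selected for one in all but an unnamed set of low-input samples, so these values say nothing about tRNA levels in the cells.

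Compared per transcript length, the control levels of the 15 detected members covered a wide range. Highest were mt-Co1 at a mean of 8139 TPM and mt-Co2 at 6072 TPM, which encode catalytic subunits of complex IV, followed by the ATP synthase genes mt-Atp8 (5196 TPM) and mt-Atp6 (5012 TPM). They ranked 5, 9, 11 and 13 among all genes. Complex I subunit genes came lower, with mt-Nd1 at 2328, mt-Nd4 at 2002, mt-Nd2 at 1389, mt-Nd4l at 1026 and mt-Nd5 at 1015 TPM, and mt-Cytb, the sole mitochondrial subunit gene of complex III, stood at 2051 TPM. The rRNAs, which in cells are far more abundant than the mRNAs, stood at 1459 TPM for mt-Rnr2 (large ribosomal subunit) and 457 TPM for mt-Rnr1 (small subunit). Lowest were mt-Nd3 at 206 TPM, most of whose pair's counts had gone to the nuclear copy, and mt-Nd6 at 168 TPM, the sole mRNA gene of the minus strand. The sources used here do not say whether counting used strand, so reads of mt-Nd6 and of RNA antisense to it cannot be told apart. Neighbours in this order were close in several places: the control ranges of mt-Atp8 (3135 to 6376 TPM) and mt-Atp6 (3750 to 6784 TPM) overlapped, as did those of mt-Nd1, mt-Cytb and mt-Nd4. With each member summed with its nuclear copy, mt-Co3, another core subunit gene of complex IV, made up 10.2% of the mRNA TPM in controls, and 3.15% without the copy.

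**Figure D3:**
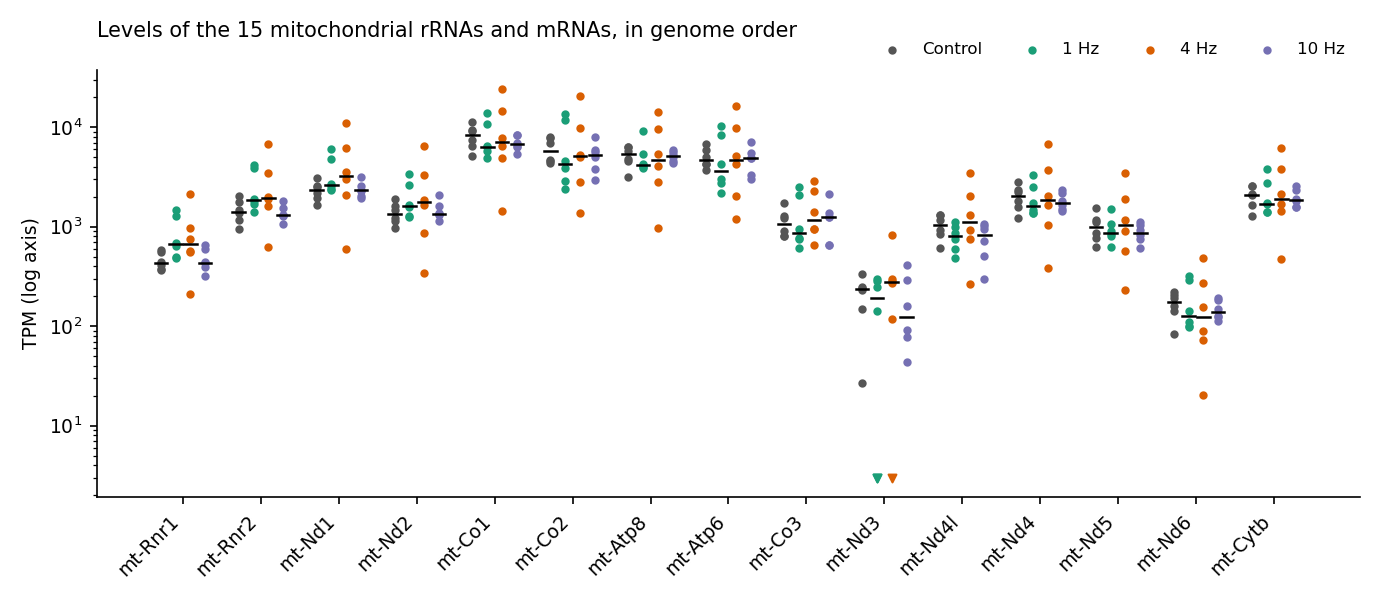
Level in TPM (log axis) of the 15 mitochondrial genes with counts, in genome order, with 1 point per library, a black line at each group's median and triangles for libraries in which mt-Nd3 was listed at 0. Control means run from 8139 TPM for mt-Co1 to 168 TPM for mt-Nd6, and the 4 Hz points are the most widely spread.

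Across conditions the levels overlapped between all groups for every one of the 15 genes. For complex IV, the median levels in the control, 1, 4 and 10 Hz groups were 8276, 6366, 7151 and 6719 TPM for mt-Co1, and those of mt-Co2 were 5821, 4231, 5161 and 5306 TPM. For ATP synthase they were 4659, 3658, 4722 and 4893 TPM for mt-Atp6, and for complex III 2095, 1702, 1902 and 1867 TPM for mt-Cytb. In each of these genes the 1 Hz median was the lowest of the 4, although single 1 Hz libraries reached 14026 TPM for mt-Co1 and 3780 TPM for mt-Cytb.

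The complex I genes were divided. Medians of mt-Nd1 were 2347, 2617, 3274 and 2319 TPM in the same order, and those of mt-Nd2 were 1352, 1624, 1761 and 1355 TPM. Those of mt-Nd4 were 2036, 1614, 1844 and 1734 TPM, and those of mt-Nd6 were 176, 127, 122 and 138 TPM. The rRNAs had medians of 427, 668, 665 and 433 TPM (mt-Rnr1) and 1419, 1856, 1943 and 1317 TPM (mt-Rnr2). Among the 15 genes, mt-Rnr1, mt-Rnr2, mt-Nd1 and mt-Nd2 were the ones whose median was above the control median at both 1 and 4 Hz. For mt-Nd5, mt-Nd4l, mt-Atp6, mt-Co3 and mt-Nd3 the 4 Hz median was above it and the 1 Hz median below.

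At 4 Hz the rRNAs and 1 complex I mRNA were called higher than in controls. The rRNA mt-Rnr1 measured 178, 222 and 303 CPM (lowest, median and highest) in controls and 135, 419 and 1713 CPM at 4 Hz. The other rRNA, mt-Rnr2, measured 909, 1288 and 1877 CPM in controls and 737, 2039 and 9922 CPM at 4 Hz. For mt-Nd1, which encodes a core membrane subunit of complex I, the values were 862, 1163 and 1611 CPM against 381, 1860 and 8763 CPM. All 3 genes overlapped between the groups, with 4 Hz replicate 3 the highest library and replicate 1 the lowest in each. The edgeR quasi-likelihood test called 3 of the 15 tested members, all higher and all past 0.5 on the log2 scale, with an adjusted p (Benjamini-Hochberg, all genes) under 0.05, 20% of them, while 51.4% of all 13315 tested genes were called in this comparison. The log2 fold changes were 1.37 for mt-Rnr1 (SE 0.48, edgeR adjusted p = 0.0231), 1.34 for mt-Rnr2 (SE 0.48, adjusted p = 0.0252) and 1.34 for mt-Nd1 (SE 0.50, adjusted p = 0.0311). For mt-Nd2, another complex I subunit gene, the value was 1.23 (SE 0.52, edgeR adjusted p = 0.0552). The fold changes of the 15 members, which vary together and are not separate results, were all positive, with a median of 0.82, against 0.06 over all genes.

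These calls rested on few libraries. Without 4 Hz replicate 3 no member was called, and the log2 fold changes fell to 0.67 for mt-Rnr1, 0.62 for mt-Rnr2 and 0.61 for mt-Nd1. The median of the 15 members then fell to 0.12, with 11 positive and 4 negative. Without 4 Hz replicate 1, 6 members were called (mt-Rnr1, mt-Rnr2, mt-Nd1, mt-Nd2, mt-Nd5 and mt-Nd4l), and without control replicate 1 or control replicate 5 mt-Rnr1 alone was. Leaving out 4 Hz replicate 6 or control replicate 3 ended the call of mt-Nd1, as leaving out control replicates 1 or 5 did. No member was called when 4 Hz and control were fitted alone, when the filter was dropped, or by limma on log2(TPM + 1). In that limma test the median of all genes lay at -0.21 rather than 0.06. That of the members was -0.02, with 7 positive and 8 negative. Under 3 other scalings of the counts in edgeR all 15 were positive, with medians of 0.80 to 0.86. The limma test differs in more than its scale, because it averages log values, whereas edgeR fits the mean level of each group. A single high library, such as 4 Hz replicate 3, weighs more in such a mean. Which of these made the difference was not tested. Without the 5 libraries outside the control range of the mitochondrial share, the same 3 genes were called, but the median of the 15 members was -0.02, with 7 positive and 8 negative.

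At 1 Hz no member was called, while 37.3% of all tested genes were. At an unadjusted p under 0.05 edgeR gave 2 members, and DESeq2 called 1, mt-Rnr1. The 1 Hz libraries gave 245, 370 and 1051 CPM of mt-Rnr1, and its log2 change was 1.21 (SE 0.48, edgeR adjusted p = 0.0543), and those of mt-Rnr2 were 1344, 1823 and 5418 CPM, a change of 1.08 (adjusted p = 0.0826). The lowest 1 Hz libraries lay inside the control range of both genes, and replicates 4 and 6 were far above it. The median of the members was 0.37, with 13 positive and 2 negative, and became -0.34 without the 5 libraries. A test with 1 Hz and control alone called 2 members, leaving out 1 Hz replicate 1, 1 Hz replicate 5 or 4 Hz replicate 1 gave 1 (mt-Rnr1), and leaving out 4 Hz replicate 3, which enters the fit through the shared spread, gave 2 (both rRNAs).

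At 10 Hz no member was called, none reached an unadjusted p under 0.05 and DESeq2 called none, and only 0.0376% of all genes, 5 of them, were called. The 10 Hz levels resembled the controls in range: mt-Rnr2 measured 960, 1185 and 1890 CPM, and mt-Nd1 952, 1147 and 1768 CPM. The median log2 fold change of the members was -0.06, with 4 positive and 11 negative.

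Between stimulated groups, 10 Hz against 4 Hz gave 4 members lower, where 46.3% of all genes were called. They were mt-Nd4l (log2 fold change -1.39, SE 0.46, edgeR adjusted p = 0.0188), mt-Rnr2 (-1.37, SE 0.48, adjusted p = 0.0252), mt-Rnr1 (-1.29, SE 0.48, adjusted p = 0.0342) and mt-Nd1 (-1.28, SE 0.50, adjusted p = 0.0427). This comparison shares its 4 Hz libraries with the comparison against control. It gave 0 calls without 4 Hz replicate 3, 8 without 4 Hz replicate 1, 1 without 10 Hz replicate 1 or 6, and 2 without 10 Hz replicate 2 or 4. In these tests mt-Nd4l, a complex I subunit gene, counted without its nuclear copy, which took a larger part of the pair at 10 Hz than at 4 Hz; summed with it, it was not called and the other 3 were. Against 1 Hz, 10 Hz gave 0 members (2 at an unadjusted p under 0.05) of 27.9% called genes, and 4 Hz gave 0 members (1 at an unadjusted p under 0.05, mt-Nd4l at 1.09) where 0 genes at all, 0%, were called by edgeR and 38 by DESeq2.

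The balance among the members was compared next, starting with the rRNAs. The 2 rRNAs gave 9.09 ± 1.52 counts per 100 mitochondrial mRNA counts in controls (lowest 7.34, median 9.08, highest 11.8; SD, n = 6). At 1 Hz they gave 14.6 ± 2.12 (11.8, 14.6 and 17.5), at 4 Hz 14.2 ± 3.18 (11.2, 13.3 and 18.3) and at 10 Hz 9.76 ± 2.17 (7.73, 9.13 and 14.0). Every 1 Hz library was above every control, although the lowest, replicate 1 (11.82), stood just above the highest control, replicate 6 (11.77), whereas 4 Hz and 10 Hz overlapped the control range. On the log2 scale the ratio was higher by 0.69 at 1 Hz (two-sided exact permutation p = 0.0022, the smallest that 924 permutations allow; adjusted p = 0.0519 over 48 tests of single values). At 4 Hz it was higher by 0.63 (exact p = 0.00649, adjusted p = 0.0779) and at 10 Hz by 0.09 (exact p = 0.569). None of these passed 0.05 after adjustment, although the 1 Hz value did (0.0455) when the tests of the unseen tRNAs were left out of the adjustment. The 10 Hz ratio was lower than the 1 Hz ratio by 0.60 (exact p = 0.00866, adjusted p = 0.0831), and 4 Hz differed from 1 Hz by -0.06 (exact p = 0.688).

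RNAs that carry no poly(A) tail varied alongside this ratio. The summed TPM of 9 nuclear RNAs of that kind was 63.5 in controls (24.5 to 92.1), 189 at 1 Hz (71.2 to 305), 187 at 4 Hz (74.8 to 487) and 68.9 at 10 Hz (35.4 to 135). Of the 9, 3 were abundant enough to test, and all 3 were higher at 1 and at 4 Hz: Rmrp, the RNA of RNase MRP, by 3.55 and 3.56, Rpph1, the RNA of RNase P, by 2.16 and 2.39, and Rn7sk, which restrains a transcription elongation factor, by 1.58 and 1.72 on the log2 scale. None of them was called at 10 Hz. Replication-dependent histone mRNAs typically end without a tail too, although whether those counted here did was not tested. Of 5 tested against control, H1f4 was lower at 1 Hz (-0.89) and none was called at 4 or 10 Hz. For 10 Hz against 4 Hz, 2 of the 5 (40.0%) were called, both lower, against 46.3% of all genes. None was called for 10 Hz against 1 Hz. Their summed TPM was 281, 241, 250 and 236 in the control, 1, 4 and 10 Hz groups. According to the labels, low-input samples were ribodepleted in place of poly(A) selection, without saying which. The part of library preparation in the rRNA ratio was not tested.

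**Figure D4:**
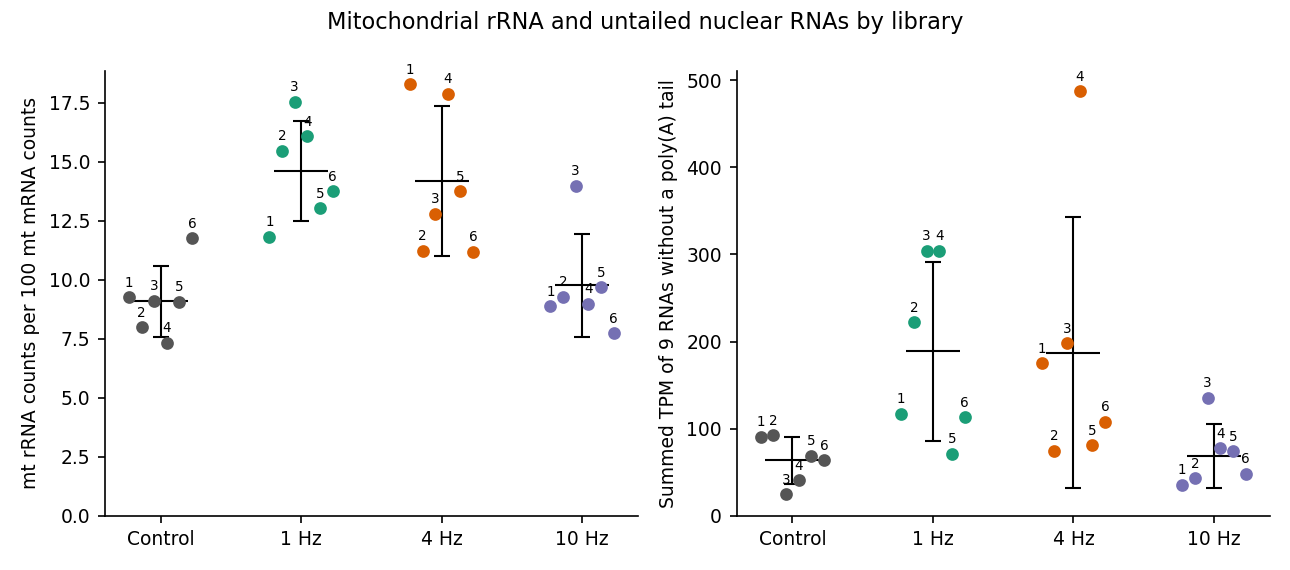
Left, counts of the 2 mitochondrial rRNAs per 100 mitochondrial mRNA counts; right, summed TPM of 9 nuclear RNAs without a poly(A) tail. Points are libraries and bars the group mean ± SD (n = 6); all 1 Hz libraries lie above the controls on the left (11.8 to 17.5 against 7.34 to 11.8), and on the right 1 Hz and 4 Hz average 189 and 187 TPM against 63.5 in controls.

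Among the mRNAs, mt-Nd1 took a larger part of the mitochondrial mRNA at 1 and 4 Hz. Each gene, with its nuclear copy where it has one, was expressed per 100 counts of the 13 mRNAs and their copies, a measure chosen after the data were seen. The control libraries gave 5.57, 5.80 and 6.26 mt-Nd1 counts per 100 (lowest, median and highest). The 1 Hz libraries gave 7.22, 7.91 and 9.15, the 4 Hz libraries 7.05, 8.36 and 8.76, and the 10 Hz libraries 6.23, 6.61 and 6.91. The 1 Hz and 4 Hz ranges did not overlap the control or the 10 Hz range. The log2 ratio was higher than in controls by 0.44 at 1 Hz (SE 0.05) and by 0.46 at 4 Hz (SE 0.06), each with an exact permutation p of 0.0022, the smallest possible, and an adjusted p of 0.0427 over 138 tests. At 10 Hz the difference was 0.16 (SE 0.03, exact p = 0.00649, adjusted p = 0.0498). Between stimulated groups, 10 Hz was lower than 1 Hz by 0.28 and lower than 4 Hz by 0.30 (adjusted p = 0.0427 for both, exact permutation test). In the same comparisons mt-Rnr2 was lower by 0.55 and 0.53, and mt-Cytb was higher at 10 Hz than at 1 Hz by 0.14; no member passed between 4 and 1 Hz.

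The mt-Nd1 differences at 1 and 4 Hz passed in all 12 fits of each that left out 1 library, with log2 differences of 0.40 to 0.47 and 0.44 to 0.50; the 10 Hz difference passed in 1 of 12. Without the 5 libraries outside the control range of the mitochondrial share the differences were 0.46 and 0.49 with ranges still apart, although no ratio passed the adjustment with so few libraries. The gene mt-Nd1 lies outside the nuclear copy, so the division of reads between chromosomes does not enter its count. The part of library preparation in the ratios among the mRNAs was not tested either. The untailed nuclear RNAs were higher in the same groups, at 189 and 187 TPM for 1 and 4 Hz against 63.5 TPM in controls.

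Besides mt-Nd1, 3 further members passed relative to the mRNAs at 1 Hz. They were mt-Nd2, with 5.06 ± 0.707 counts per 100 against 3.86 ± 0.245 (log2 difference 0.38, SE 0.09, adjusted p = 0.0427, exact permutation test), and both rRNAs, mt-Rnr1 by 0.72 (SE 0.18) and mt-Rnr2 by 0.62 (SE 0.13; adjusted p = 0.0498 for both, exact permutation test). No 1 Hz library of mt-Nd2 overlapped the control range. In genome order these 4 are the first rRNA and mRNA genes of the plus strand, from mt-Rnr1 (chrM:70-1024) and mt-Rnr2 (chrM:1094-2675) to mt-Nd1 (chrM:2751-3707) and mt-Nd2 (chrM:3914-4951), and none of them lies in the nuclear copy. The value of mt-Nd3 (chrM:9459-9806), which does lie in it, was 0.43 at 1 Hz, above that of mt-Nd2, without passing (adjusted p = 0.0853, exact permutation test). At 4 Hz, 3 passed: mt-Nd1, mt-Rnr2 by 0.60 (SE 0.14) and mt-Nd3 by 0.41 (SE 0.14; adjusted p = 0.0498 for both, exact permutation test). The values of the other members in that stretch were 0.64 for mt-Rnr1 (adjusted p = 0.0747) and 0.29 for mt-Nd2 (adjusted p = 0.149, exact permutation tests). With 1 library left out, the 4 Hz value of mt-Nd3 passed in 2 of 12 fits and that of mt-Rnr2 in 4 of 12. The nuclear copy of mt-Nd3 held a median of 74.6% of the summed counts of that pair at 4 Hz. At 10 Hz mt-Nd1 and mt-Nd2 passed, the latter by 0.21 (SE 0.06, adjusted p = 0.0498, exact permutation test).

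Members near the threshold depended on single libraries. The number that passed ran from 1 to 5 at 1 Hz and at 4 Hz and from 0 to 2 at 10 Hz when 1 library was left out, which also raises the smallest p the test allows. Counting each member without its copy left 2 at 1 Hz, 1 at 4 Hz and 0 at 10 Hz, and using TPM left 3, 2 and 1.

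For the other 10 mRNAs no difference from control passed. Per 100 mRNA counts, mt-Co1 gave 37.7 ± 0.841 in controls, 36.2 ± 1.46 at 1 Hz, 35.6 ± 1.59 at 4 Hz, and 36.0 ± 1.30 when paced at 10 Hz (SD, n = 6). The log2 differences from control were between -0.08 and -0.06, with adjusted p-values of 0.0956 or more by exact permutation tests. For mt-Co2 the group means lay between 12.6 and 13.7, for mt-Atp6 8.44, 8.46, 8.44 and 9.07, and for mt-Cytb 6.39, 6.10, 6.35 and 6.72 in the order control, 1, 4 and 10 Hz. The minus-strand mRNA mt-Nd6 gave 0.175 ± 0.0205 in controls and 0.134 ± 0.0389 at 4 Hz, with overlapping ranges. Its log2 ratio to the 12 other mRNAs was lower at 4 Hz by 0.40 (exact permutation p = 0.0498, adjusted p = 0.217), and differed from control by less than the spread between libraries at 1 and 10 Hz.

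**Figure D5:**
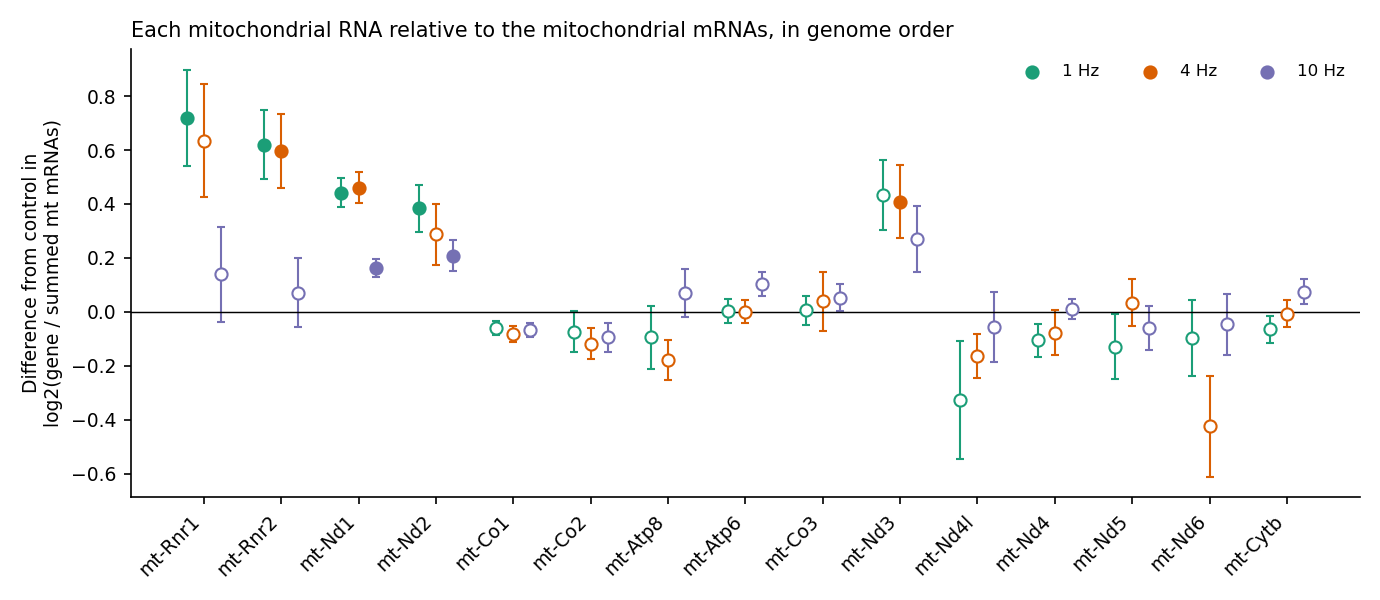
Difference from control in the log2 ratio of each mitochondrial gene (with its nuclear copy) to the summed mitochondrial mRNAs, in genome order, for 1, 4 and 10 Hz; bars are the SE of the difference and filled points have an adjusted p under 0.05 (exact permutation test, n = 6 per group). The rRNAs, mt-Nd1 and mt-Nd2 lie at 0.29 to 0.72 at 1 and 4 Hz, mt-Nd3 at 0.43 and 0.41, and mt-Co1 between -0.08 and -0.06.

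Summed by complex, the 7 mt-Nd mRNAs of complex I stood at a log2 ratio of -1.03 ± 0.07 to the 3 mt-Co mRNAs of complex IV in controls. In the 1 Hz group it was -0.77 ± 0.19, in the 4 Hz group -0.75 ± 0.11 and in the 10 Hz group -0.90 ± 0.04 (SD, n = 6), and the 4 Hz libraries did not overlap the controls. The differences were 0.26 (exact permutation p = 0.0173, adjusted p = 0.119), 0.28 (exact p = 0.0022, adjusted p = 0.0519) and 0.14 (exact p = 0.00433, adjusted p = 0.0693), none past 0.05 after adjustment. With the nuclear copies summed in, the 4 Hz difference was 0.23 (exact permutation p = 0.043, adjusted p = 0.227).

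The nuclear partners of the mitochondrial mRNAs were called at 1 and 4 Hz in 1 direction. Of 77 tested nuclear genes for subunits of complexes I, III, IV and V, 61 were higher at 4 Hz and none lower, with a median log2 fold change of 0.50 against 0.06 over all genes; 79.2% of the list was called, against 51.4% of all genes. They included 30 of 37 for complex I, 7 of 9 for complex III, 12 of 14 for complex IV and 12 of 17 for ATP synthase. Among them were Cox6a1 (0.56, SE 0.10, edgeR adjusted p = 5.81e-05) and Cox8a (0.45, SE 0.10, adjusted p = 0.000798) of complex IV and Ndufa11 (0.57, SE 0.12, adjusted p = 0.000435) and Ndufa6 (0.57, SE 0.13, adjusted p = 0.000891) of complex I. At 1 Hz 23 were higher and none lower (median 0.30), Cox6a1 by 0.46 (SE 0.10, edgeR adjusted p = 0.000878), Cox8a by 0.34 (SE 0.10, adjusted p = 0.0119) and the ATP synthase genes Atp5l and Atp5mpl by 0.66 and 0.61 (SE 0.20 in both, adjusted p = 0.0149 and 0.022). These 23 are 29.9% of the list, below the 37.3% of all genes called. At 10 Hz none was called (median -0.05). The 1 Hz count was unstable: it was 1 without 1 Hz replicate 6, 2 without 1 Hz replicate 4, 36 without replicate 1 and 44 without replicate 5 of 1 Hz, 5 without control replicate 3 or 4 and 7 without control replicate 5 or 6. At 4 Hz it lay between 44 and 65 when 1 library was left out, and was 31 by limma on log2(TPM + 1). Higher levels at 1 and 4 Hz were not particular to this list. Its summed TPM was 27210, 29184, 31104 and 26094 in the control, 1, 4 and 10 Hz groups. That of 89 cytosolic ribosomal protein genes was 150630, 175614, 185690 and 155801 in the same order.

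Genes that copy and express the mitochondrial genome were called in both directions. Of 42 tested, 4 were higher and 16 lower at 1 Hz (median log2 fold change -0.14), 7 higher and 19 lower at 4 Hz (median -0.19), and none was called at 10 Hz (median -0.08). The called shares were 47.6% at 1 Hz and 61.9% at 4 Hz, against 37.3% and 51.4% of all genes, and no test of the list was made. Polrmt, the mitochondrial RNA polymerase, was lower by 0.65 at 1 Hz (SE 0.08, edgeR adjusted p = 7.3e-07) and by 0.61 at 4 Hz (SE 0.08, adjusted p = 8.07e-07). Lrpprc, which stabilises mitochondrial mRNAs and promotes their polyadenylation, was lower by 0.55 and 0.61 (SE 0.08 in both, edgeR adjusted p = 7.2e-06 and 8.24e-07). Elac2, which cuts the 3′ ends of tRNAs out of the precursor, was lower by 0.46 and 0.50 (SE 0.07 in both, edgeR adjusted p = 1.74e-05 and 2.76e-06), and Fastkd1, of an RNA-binding family acting on mitochondrial transcripts, by 0.75 and 1.06 (SE 0.12 in both, edgeR adjusted p = 3.3e-05 and 2.45e-07). RNA processing and stability genes made up 20 of the 42 tested. They accounted for 10 of the 16 lower genes at 1 Hz and 11 of the 19 at 4 Hz. Of the higher genes, 1 of 4 at 1 Hz and 3 of 7 at 4 Hz had this role. The count of called genes lay between 17 and 24 at 1 Hz and between 24 and 27 at 4 Hz when 1 library was left out. Whether these genes and the levels of the mitochondrial RNAs are linked was not tested.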

How the data were processed

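RNA of 24 cultures was sequenced by the authors on a Singular G4 instrument as paired-end libraries, made with a directional kit after poly(A) selection; per the labels, low-input samples were ribodepleted, and which ones is not given in the sources used here. The authors processed reads with nf-core/rnaseq 3.11.1 against GRCm39 and Ensembl annotation; the submitters' processing notes list BWA 0.7.12-r1039, bedtools 2.25.0, STAR and Salmon. The deposited gene table holds estimated counts, which need not be whole, and a second deposited table from the same pipeline holds TPM, which the authors' quantifier scaled by effective transcript length. Whether strand was used in counting is not given in the sources used here.

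Estimated counts were rounded and tested with edgeR 4.0.16 (R 4.3.3; quasi-likelihood, TMM factors, all 24 libraries in 1 model, genes kept by filterByExpr). This left 13315 genes, and p-values were adjusted by Benjamini-Hochberg over all of them, with calls at 0.05 and the number past 0.5 on the log2 scale beside them. CPM used TMM library sizes, except for tRNA counts and limits, which used library totals. Alternatives used DESeq2 1.42.0, limma 3.58.1 on log2(TPM + 1) and log2(TPM + 0.1), other normalisations, filters and left-out libraries. On simulated counts with 12832 genes for 1 Hz against control, edgeR recovered 60% of genes changed by 0.5 and 83.3% of those changed by 1 on the log2 scale. The changed genes were picked at random from all genes and fitted with these groups alone. The mitochondrial members vary more between libraries than most genes, so these rates do not apply to them. Single values (8 values over 6 pairs of groups, 48 tests) and ratios of each of 15 members to the mitochondrial mRNAs (90 tests) were compared by two-sided exact permutation of the 12 libraries; the ratios were adjusted together with the single values, over 138 tests. SDs are over libraries, and SEs of differences in ratios were computed from them. SEs of edgeR fold changes were derived from the F statistic of the quasi-likelihood test. Sequences and gene positions came from GRCm39 with GENCODE models; nuclear copies were found with blastn 2.17.0 at 98% identity or more over at least 200 bases. Figures and values used Python 3.11.15.

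The members, the nuclear gene lists and the tests were chosen with earlier results of these data known. All 37 members are accounted for; values were given for each mRNA and rRNA that a result turned on, and from the nuclear lists the genes named were the 4 with the smallest adjusted p in each list and comparison. The replicates are described as biological, yet they are wells of 1 cell line, so p-values set differences between groups against the spread between cultures of that line. Library totals were 8052369 to 18159144 counts, and counting limits cover counting error only.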

Additional observations from a re-analysis of the deposited data

Results flagged for a closer look

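Single libraries stood far from the other 5 of their group in 8 of 92 groups of values examined by Dixon's criterion, which chance meets in about 1 of 20 groups. In 4 Hz replicate 3 the levels of mt-Rnr1 (1713 CPM), mt-Rnr2 (9922 CPM), mt-Nd2 (5679 CPM), mt-Co2 (10445 CPM) and mt-Nd3 (136.5 CPM) were far above those of the other 4 Hz libraries. The gaps to the next library were 0.71, 0.66, 0.635, 0.671 and 0.732 of the group's range. In 10 Hz replicate 5, mt-Nd1 (1768 CPM, gap 0.634) and mt-Nd2 (1299 CPM, gap 0.643) were the highest of their group. The single tRNA count, 1 count of mt-Tm in 1 Hz replicate 4, stood out because the other 5 libraries had none. These values belong to genes that vary together and are not independent of each other.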

How the results depend on the processing

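Over the 6 comparisons and all settings tried, 1132 recomputed values kept their direction and their side of the threshold (counts, within 1.5 times), 104 counts moved further, 63 values lost and 9 gained the threshold, and 54 changed sign. The 1132 include tests that could hardly change, such as those of the tRNA share. No single value passed in the main tests, so for single values keeping a side meant not passing. The total is therefore no measure of how stable the results were. The settings that summed members with their copies, left out 5 libraries or dropped the tRNA tests from the adjustment were added after the data were seen. The ratio of tRNA to mRNA counts could not be computed, because 23 libraries had no tRNA count. The number of libraries sets the smallest p of the exact tests. Where a result changed below, the cause was not tested.

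Members called at 4 Hz against control numbered 0 without the filter, with both groups alone and by limma at either pseudocount (1 or 0.1). For 10 Hz against 4 Hz the counts were 1 without the filter, 0 with both groups alone, 0 by limma at either pseudocount and 1 without the 5 libraries. At 1 Hz against control, both groups alone gave 2 and DESeq2 gave 1, and 10 Hz against 1 Hz with both groups alone gave 1. Leaving out 1 library of the groups compared gave 0 to 1 members at 1 Hz, 0 to 6 at 4 Hz and 0 to 8 for 10 Hz against 4 Hz. Nuclear respiratory chain genes called at 1 Hz numbered 15 with library sizes computed without the mitochondrial genes, 6 by limma at either pseudocount, 2 without the filter, 2 without the 5 libraries and 1 to 44 when 1 library was left out. At 4 Hz limma gave 31 at either pseudocount.

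Replicate numbers did not pair the libraries: deviations from the group means correlated by -0.037 to 0.00159 on average for the same number and by 0.00457 for different numbers. With the replicate number as a block, members called were 0 at 4 Hz and 0 for 10 Hz against 4 Hz, and nuclear respiratory chain genes called at 1 Hz were 6. The exact sign-flip test of 6 same-numbered pairs cannot give a p below 0.031, so it could hardly pass adjustment over 48 tests and says nothing about the single values.

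Members that passed relative to the mRNAs numbered 2, 1, 0, 1 and 0 without their copies (1, 4 and 10 Hz against control, then 10 Hz against 1 Hz and 4 Hz). Without the 5 libraries each of these was 0, and by TPM 10 Hz against control and 10 Hz against 4 Hz gave 1 each. Leaving out 1 library gave 1 to 5, 1 to 5, 0 to 2, 0 to 3 and 0 to 2 in the same order.

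Without the 5 libraries, the difference in the mitochondrial share turned to -0.403 percentage points at 1 Hz, -0.0882 at 4 Hz and 0.251 for 10 Hz against 1 Hz. The mRNA share turned to -0.438, -0.155 and 0.289 in that order, and to 0.00556 for 10 Hz against 4 Hz. The log2 ratio of mt-Nd to mt-Co for 4 Hz against 1 Hz turned to -0.0838, and that of mitochondrial to nuclear mRNAs to 0.0155. Exchanging TPM and counts turned the mt-Nd6 ratio for 10 Hz against 1 Hz to -0.0211 and the mitochondrial to nuclear ratio to 0.00858 at 1 Hz and -0.0606 for 10 Hz against 1 Hz, which was -0.0175 with copies summed. With the tRNA tests out of the adjustment, the rRNA ratio at 1 Hz (0.69) and the mt-Nd to mt-Co ratio at 4 Hz (0.28) passed, at an adjusted p of 0.0455 by the exact permutation test.

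Leaving out 1 library moved the log2 ratio of rRNA to mRNA over 0.63 to 0.77 at 1 Hz, 0.55 to 0.71 at 4 Hz, -0.0159 to 0.171 at 10 Hz, -0.138 to 0.00338 for 4 Hz against 1 Hz and -0.70 to -0.53 for 10 Hz against 1 Hz; the first, second and last passed once each. The mt-Nd to mt-Co ratio ranged over 0.25 to 0.31 at 4 Hz and 0.12 to 0.16 at 10 Hz, each passing once, and over -0.0436 to 0.0611 for 4 Hz against 1 Hz. The mt-Nd6 ratio ranged over -0.117 to 0.0191 at 1 Hz, -0.110 to 0.0327 at 10 Hz and -0.0706 to 0.0786 between them. The mitochondrial to nuclear ratio ranged over -0.57 to 0.23 at 4 Hz, -0.180 to 0.0461 at 10 Hz, -0.46 to 0.33 for 4 Hz against 1 Hz, -0.0269 to 0.209 for 10 Hz against 1 Hz and -0.27 to 0.53 for 10 Hz against 4 Hz. In percentage points, the mitochondrial share for 4 Hz against 1 Hz ranged over -0.412 to 1.26, and the mRNA share over -0.331 to 1.15 there and -0.0308 to 0.562 at 1 Hz. The rRNA share ranged over 0.0790 to 0.264 at 4 Hz, -0.0154 to 0.00893 at 10 Hz, -0.0802 to 0.105 for 4 Hz against 1 Hz and -0.266 to -0.0814 for 10 Hz against 4 Hz, the first and last passing once each.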
